A study of Sus scrofa with 20 samples.

Results

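The comparison covered longissimus muscle after and before birth in both pig breeds. It set the 6 libraries of 2, 28 and 90 days post natum (dpn) against the 8 libraries of 49, 63, 77 and 91 days post coitus (dpc), which made 14 of the 20 libraries of the series. Each period held the lean Landrace (LR) and the obese Lantang (LT), with 4 fetal and 3 young libraries per breed, and the breed was kept as a block in the comparison of the periods. The 2 libraries of 35 dpc and the 4 libraries of 120 and 180 dpn were left out by the definition of the comparison. All animals were purebred. The authors state that the fetuses were male and that the postnatal animals were boars, which were castrated after 2 weeks. Castration can therefore not be told apart from age at 28 and 90 dpn. A library was made from the RNA of 3 animals mixed in 1 pool, and a breed had only 1 pool per stage. The stages of a period therefore took the place of replicates, and the p-values weigh the difference between the periods against the spread between stages. They do not isolate the step from 91 dpc to 2 dpn.

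In pigs the muscle fibres are laid down before birth as primary and then secondary fibres, and after birth the existing fibres grow and mature. Several contractile proteins of skeletal muscle exist in related forms that are encoded by separate genes, and the forms used by fetal fibres give way to adult forms as the fibres mature. In whole muscle, fewer cells of a type and less RNA per cell cannot be told apart. The measurement was digital gene expression (DGE) tag sequencing, in which NlaIII cuts cDNA at CATG and each transcript is counted by a tag of 21 bases, the CATG and the 17 bases after it. The tags were not matched to genes here, because no transcript sequences were used, so that the labelled tissue was not checked against muscle marker genes. Levels are given as TPM, copies of a tag per 1000000 clean tags of its library.

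The 14 libraries held 2157111 to 5322022 total clean tags and together 710539 distinct clean tags. Of these, 30612 tags were found in all 14 libraries and carried 77.2% of the counts, while 370891 tags were found in 1 library. A count of 3, taken as the smallest detectable amount, stood for 0.564 to 1.39 TPM, which covers counting error only. After edgeR's filter on low counts 41655 tags were tested with its quasi-likelihood test, and a tag was called when its Benjamini-Hochberg adjusted p was below 0.05. The LR library of 2 dpn stood apart from the other young libraries in having 18.0% of its counts in tags that were too rare to be tested, against 7.12% to 14.2% in the other young libraries.

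The sequences of the tags that carried most of the change are given first, because the files identify transcripts only by them. Tags P1 to P10 were the most abundant of the tags that were higher after birth, and the F tags, numbered by rank, were among the most abundant of those that were higher in the fetus. All were called, had TPM that did not overlap between the 6 young and the 8 fetal libraries, and had no tag 1 base away that was 10 times more abundant. Capitals mark the CATG site.
P1: CATGtaccatcaataaagtac
P2: CATGaagatcaagatcatcgc
P3: CATGcagaaggagatcaccgc
P4: CATGaagtgcgacatcgatat
P5: CATGcctactaagcggggagg
P6: CATGatccccgcccagaagta
P7: CATGagactacctacaacagc
P8: CATGaggattgaggaggctct
P9: CATGgagtcggcgggcatcca
P10: CATGcgcctggacctggccgg
F1: CATGaaatgtgacattgatat
F2: CATGaccaaaaaccaaaagtg
F4: CATGaagatcaagattattgc
F6: CATGagctggaagaggccgag
F7: CATGccagtgggaatgtaaag
F8: CATGgcatcatcaccaactgg
F9: CATGgggctgcttttgtcaca
F10: CATGgactttggaaaatattt

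After birth the counts were concentrated in fewer tags than before it. The 100 most abundant tags of a library took 18.6% of its counts in the fetus (SD 2.44, n = 8) and 35.2% at 2 to 90 dpn (SD 8.37, n = 6). Each of the 6 young libraries lay above all 8 fetal libraries, with 23.9% as the lowest young and 22.5% as the highest fetal share. The difference had an exact permutation p of 0.000816 with period labels permuted within breeds, 2-sided, and an adjusted p of 0.00218 over 8 library measures. This p was the smallest that the 1225 assignments allow, and a steady change with age within each breed could also reach it. The test therefore cannot tell a step at birth from a steady change with age. The 10 most abundant tags rose in share from 5.24% (SD 0.913) to 13.7% (SD 4.70), with the same exact p and adjusted p. The number of tags that together made up 50% of the counts fell from a mean of 2781 (SD 1059) to 558.3 (SD 487), again with an exact permutation p of 0.000816 and no overlap between the periods. Within LR the mean of this number was 1809 before and 598.7 after birth, and within LT 3753 and 518.0. Every LT fetal library spread its counts over more tags than every LR fetal library, with 3530 as the lowest LT and 1941 as the highest LR number.

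The number of distinct tags differed less. In 2000000 clean tags a fetal library held 168394 distinct tags on average (SD 28165) and a young library 125100 (SD 43282), and the ranges overlapped, with 189301 in LR at 2 dpn. Tags seen once had been removed at each library's own depth, so that drawing 2000000 tags did not fully level the libraries. A single copy stood for 0.464 TPM in LR at 90 dpn and for 0.188 TPM in LT at 91 dpc. The part of this removal in the difference was not tested. The exact permutation p was 0.0359 and the adjusted p 0.0479, and the call held when LR at 77 dpc, LR at 2 dpn or LT at 90 dpn was left out and was lost when any one of the other 11 libraries was left out. The mean GC content of the 17 bases was 43.0% (SD 0.771) in the fetal and 44.7% (SD 1.64) in the young libraries, with an exact permutation p of 0.0327 and an adjusted p of 0.0479, a call that held without LR at 2 dpn, LT at 91 dpc or LT at 28 dpn and was lost without any one of the other 11. Within LR the periods did not overlap in GC content, at means of 42.6% and 45.3%, and within LT they overlapped, at 43.3% and 44.0%. The share of counts in tags with a further CATG was 3.21% (SD 0.509) before and 2.64% (SD 0.289) after birth, with an exact permutation p of 0.0237 and an adjusted p of 0.0473. Within LR this share was 2.74% in the fetal and 2.79% in the young libraries, and within LT 3.67% and 2.50%, so that the pooled difference was not found in LR, and the call was lost without any one of 9 libraries, LR at 28 and 90 dpn and the 7 of LT. Tags that held AATAAA or ATTAAA, the forms of the polyadenylation signal, took 3.76% (SD 0.915) before and 5.04% (SD 1.66) after birth, which was not called (exact permutation p = 0.0580, adjusted p = 0.0662). Tags that ended in at least 6 A took 0.397% (SD 0.372) and 0.411% (SD 0.311), with an exact permutation p of 0.951.

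**Figure D1:**
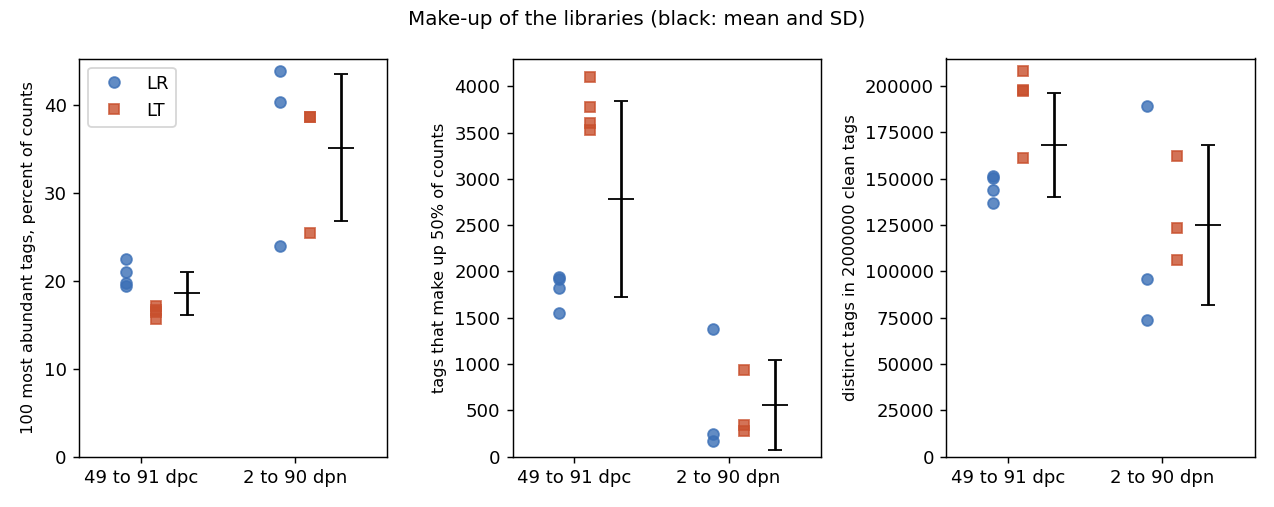
Share of counts in the 100 most abundant tags (percent), number of tags that make up 50% of the counts, and distinct tags in 2000000 clean tags, each point 1 library of 49 to 91 dpc or of 2 to 90 dpn, circles LR and squares LT. Black marks are means with SD (n = 8 and n = 6), and the periods do not overlap in the first and second panels.

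Of the 41655 tags tested, 12246 were called (29.4%). At 2 to 90 dpn 6269 tags were higher (15.0% of the tested tags) and 5977 were lower (14.3%). The median log2 fold change was 1.91 among the tags called higher and -2.02 among those called lower, and 11827 of the called tags changed by at least 1 on the log2 scale. This even split rests on TMM scaling, which sets the bulk of tags level between libraries. When libraries were scaled by total clean tags instead, 15105 tags were called, 2989 higher and 12116 lower, and the median log2 fold change of all tested tags moved from -0.0041 to -0.64. All of the 2989 were among the 6269 tags, and all 5977 tags called lower with TMM were also called lower with total scaling. TPM values follow the second scaling: 5011 tags had all 6 young libraries below all 8 fetal libraries and 616 had them above, together 13.5% of the tested tags.

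**Figure D2:**
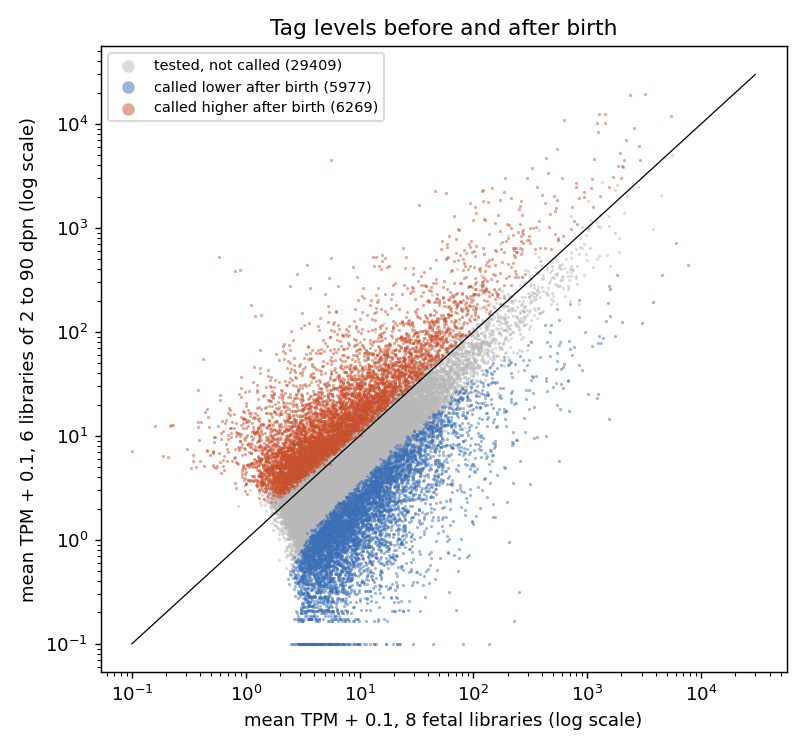
Mean TPM of each of the 41655 tested tags in the 8 fetal libraries (horizontal axis) and in the 6 libraries of 2 to 90 dpn (vertical axis), both with 0.1 added and on log scales. Red points are the 6269 tags called higher after birth, blue points the 5977 called lower, grey points were not called, and the line marks equal TPM, below which most grey points lie.

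The tags called higher took over the libraries. They carried 10.8% to 20.9% of the counts of the fetal libraries, with a median of 15.5%, and 40.1% to 66.8% of those of the young libraries, with a median of 57.5%. The tags called lower shrank from 14.4% to 21.7% of the fetal libraries to 1.50% to 3.51% of the young libraries. These shares are descriptions, since the same libraries chose the tags. The rise had begun in the fetus: in LR the share of the tags called higher was 12.7% at 49 dpc, 15.1% at 63 dpc, 17.8% at 77 dpc and 20.9% at 91 dpc. In LT it was 10.8%, 15.1%, 15.8% and 18.6% at the same stages. At 2 dpn the share stood at 42.6% in LR and 40.1% in LT, and it went on to 62.6% and 56.8% at 28 dpn. The tags called lower held between 18.3% and 21.7% up to 77 dpc in both breeds, 16.3% in LR and 14.4% in LT at 91 dpc, and 3.42% and 3.51% at 2 dpn.

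The 6 libraries outside the comparison did not choose the tags and gave a separate reading of them. At 35 dpc the tags called higher took 8.32% of the counts in LR and 9.52% in LT, below every fetal library of the comparison. At 120 and 180 dpn they took 64.0% and 61.3% in LR and 65.4% and 58.3% in LT. Of the tags called higher, 72.7% at LT 120 dpn and 73.2% at LT 180 dpn had a log2(TPM + 1) nearer to the young than to the fetal mean, and of the tags called lower 98.1% and 94.2%. Among the tags that were tested and not called the figures were 77.4% and 69.2%, so that only the tags called lower stood above the tags not called in both libraries. Nearness was taken on TPM, while the tags were called with TMM scaling. With scaling by total clean tags only 2989 of the 6269 tags were called higher, and the median log2 fold change of all tested tags was -0.64. The part of this difference of scale in the shares was not tested. In LR at 120 and 180 dpn 34.7% and 34.5% of the tags called higher lay nearer to the young mean, beside 96.0% and 97.1% of the tags called lower and 74.7% and 74.9% of those not called. Those LR libraries lacked some of the most abundant young tags: P3 was at 145 and 180.5 TPM there, P4 at 86.0 and 59.7 TPM, and P9 at 3.50 and 2.76 TPM. All 16 P tags lay within or above their young range in LT at 120 and at 180 dpn, and 8 of the 16 did so in each of these LR libraries. The LR libraries also had 0.116% and 0.224% of counts in tags with a further CATG, against 2.14% to 3.80% in the 14 libraries, whose part in these levels was not tested.

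**Figure D3:**
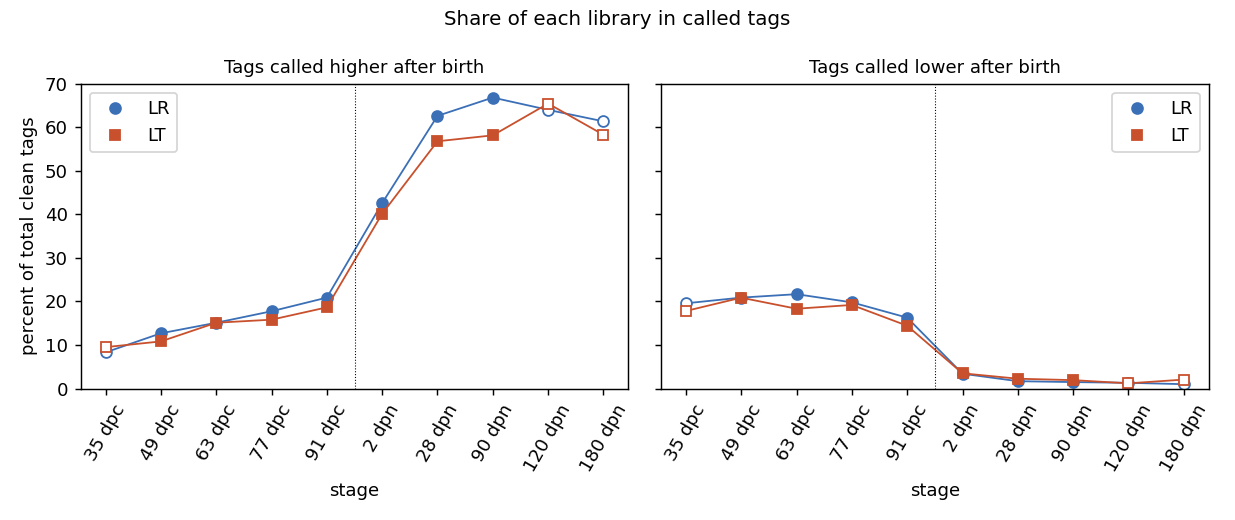
Percent of total clean tags in the 6269 tags called higher after birth (left) and in the 5977 tags called lower (right), by stage, circles LR and squares LT. Filled symbols are the 14 libraries compared, open symbols the libraries of 35 dpc and of 120 and 180 dpn, and the dotted line marks birth: the left curves pass from 20.9% and 18.6% at 91 dpc to 42.6% and 40.1% at 2 dpn.

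The step across birth was the largest for most of the tags called lower. Among tags called lower, the drop from 91 dpc to 2 dpn was the largest downward step on the log2(TPM + 1) scale for 68.4% in LR and 69.3% in LT. Among tags called higher the rise over the same interval was the largest upward step for 46.9% in LR and 39.5% in LT. Between 91 dpc and 2 dpn 5613 of the 5977 tags called lower (93.9%) dropped in both breeds, and 3640 of the 6269 tags called higher (58.1%) increased in both. Over all tested tags these figures were 38.7% and 15.9%. Fetal slopes pointed the same way: 54.6% of the tags called higher were above their 49 dpc level at 91 dpc in both breeds, against 31.1% of all tested tags, and 45.6% of the tags called lower were below it, against 25.9%. The highest young level of the tags called higher was at 2 dpn for 40.8%, at 28 dpn for 25.4% and at 90 dpn for 33.8%. Over all tested tags it was at 2 dpn for 58.3%, at 28 dpn for 22.8% and at 90 dpn for the remainder, so that a peak at 90 dpn was more frequent among the tags called higher. The figures of the steps are descriptions, since the same libraries chose the tags and a step in the called direction was thereby favoured. The steps were also taken on TPM, while the tags were called with TMM scaling. The TMM factor was 1.18 in LR and 1.28 in LT at 91 dpc, and 0.921 and 1.00 at 2 dpn. A tag that TMM holds level therefore drops in TPM across birth. This favours falling over rising steps, to an extent that was not tested.

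The most abundant tags after birth were already present in the fetus at lower levels. P1 was at 1615, 3403 and 4834 TPM as lowest, median and highest fetal value and at 7709, 17245 and 37990.2 TPM as lowest, median and highest young value. P2 had fetal values from 297 TPM through a median of 1651 to 6343 TPM and young values from 9219 through 19042 to 29304 TPM. P3 ran from 126 through 1224 to 3505 TPM in the fetus and from 4278 through 12473 to 21368 TPM after birth. In both breeds all 3 were higher at 2 dpn than at 91 dpc, which followed from the choice of tags without overlap, and higher again at 90 dpn. The log2 fold change was 3.37 (SE 0.54) for P1, 4.06 (SE 0.63) for P2 and 4.03 (SE 0.63) for P3, with edgeR adjusted p of 0.000255, 0.000184 and 0.000196. Here and below, SE stands for the absolute log2 fold change divided by the square root of the test's F statistic. It is an approximation and not the standard error of the fitted coefficient. P1 was the only one of the 30 P and F tags named in the comparison of the periods that held a polyadenylation signal, the letters AATAAA.

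P4 had 359.7, 1217 and 2298 TPM as lowest, median and highest fetal value and 7748, 11307 and 22162 TPM after birth, a log2 fold change of 4.03 (SE 0.54, edgeR adjusted p = 7.52e-05). P5 rose most among the 10, from a fetal range of 215 to 954 TPM (median 652) to 1525 to 24095 TPM (median 8984), with a log2 fold change of 4.83 (SE 0.65, edgeR adjusted p = 7.67e-05). Most of the rise of P5 came after 2 dpn, since it stood at 1806 TPM in LR and 1525 TPM in LT at 2 dpn and at 24095 and 7421 TPM at 28 dpn. P6 went from a median of 1276 TPM (434 to 2102) to 8444 TPM (3129 to 15638) and P7 from 522 TPM (118 to 1149.6) to 5686 TPM (2030.2 to 9236). P8, P9 and P10 had fetal medians of 265, 286 and 185 TPM and young medians of 3571, 2994 and 2524 TPM. Together P1 to P10 took 0.385% to 2.18% of a fetal library and 4.46% to 16.9% of a young library. All 10 increased at every step from 49 to 91 dpc in LT, and all but P1 did so in LR.

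The most abundant fetal tags kept a trace after birth. F1 had 3309.7, 7115 and 14385 TPM as lowest, median and highest fetal value and 91.3, 154 and 1274 TPM as lowest, median and highest young value. F2 ran from 3715 through 5792 to 9063 TPM in the fetus and from 559.7 through 616 to 1043 TPM after birth. In both the highest young value was that of LR at 2 dpn, and the levels at 28 and 90 dpn were lower. The log2 fold change was -3.49 (SE 0.62) for F1 and -2.42 (SE 0.38) for F2, with edgeR adjusted p of 0.000551 and 0.000226. DESeq2 gave no adjusted p for F1.

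F4 fell from a fetal median of 3671 TPM to a young median of 74.5 TPM, a log2 fold change of -3.62 (SE 0.62, edgeR adjusted p = 0.000414). F6 went from 832 to 3803 TPM in the fetus to 4.13 to 483 TPM after birth, and its 2 dpn values of 216 TPM in LR and 483 TPM in LT were far above the 4.13 to 20.4 TPM of the later stages. F7 and F9 changed least of these 8 tags, with log2 fold changes of -1.65 (SE 0.38) and -1.87 (SE 0.37) and edgeR adjusted p of 0.00356 and 0.00127. F8 had a fetal median of 1571 TPM and a young median of 22.3 TPM, and F10 of 1167 and 143 TPM. Together the 8 tags took a median of 2.71% of a fetal library (1.78% to 3.63%) and 0.165% of a young library (0.139% to 0.444%). All 14 F tags were higher at 91 dpc than at 2 dpn in both breeds, which followed from the choice of tags without overlap. Of the 14, 9 were lower at 91 than at 49 dpc in both breeds.

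**Figure D4:**
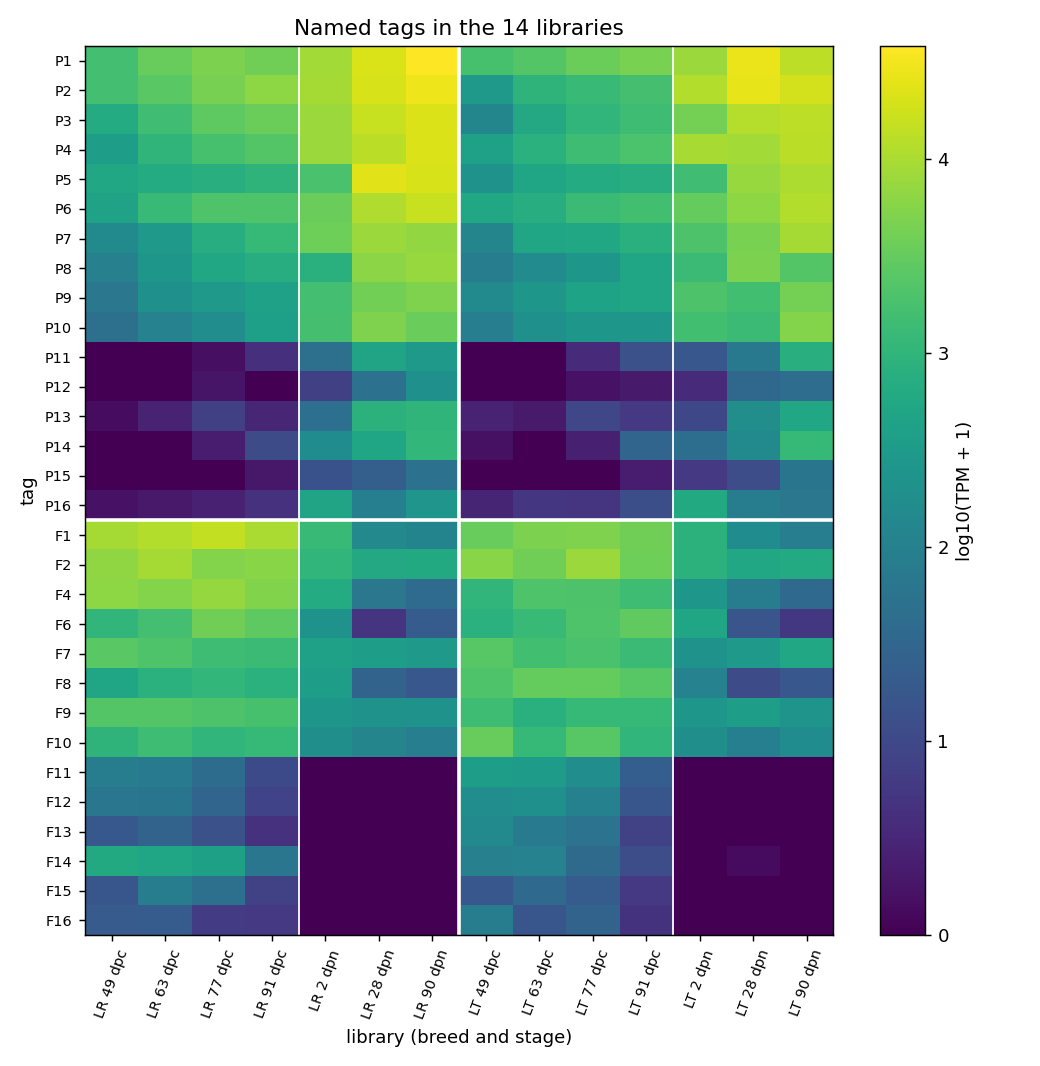
Level of the 30 named tags as log10(TPM + 1), rows P1 to P16 above the white line and the F tags below it, columns the 14 libraries by breed and stage. White vertical lines part the fetal from the young libraries and LR from LT, and F11 to F13, F15 and F16 are at 0 in all 6 young libraries.

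The largest relative changes were those of tags that were close to absent in one period. They are shown because their levels behaved almost as present or absent, and the rule asked for a mean of at least 20 TPM in the higher period.
P11: CATGcctattgcgcccaccag
P12: CATGaccatggtggaccccaa
P13: CATGgagcacatccgtgtggg
P14: CATGctgtgcagtcctcccgc
P15: CATGggccagggcactcttgg
P16: CATGtcccaggaagcccccat
F11: CATGcctcccaagaagcctga
F12: CATGtcctcgccaccctggga
F13: CATGggcgctgagcttcgcca
F14: CATGggcccatatccctccct
F15: CATGgtcctgtgctctggcca
F16: CATGgagttttcaagtataca

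P11 had no count at 49 and 63 dpc in either breed, reached 12.6 TPM at most in the fetus, in LT at 91 dpc, and had 16.5, 176 and 777 TPM as lowest, median and highest young value. P13 went from 0.448 to 8.55 TPM (median 1.95) to 8.83 to 976 TPM (median 364), and its lowest young value, in LT at 2 dpn, was close to its highest fetal value, in LT at 77 dpc. P14 went from at most 30.8 TPM to a young median of 334 TPM. P12 and P15 had fetal medians of 0 and no fetal library above 1.32 TPM, and young medians of 38.2 and 18.3 TPM. The log2 fold changes of P11 to P16 ran from 6.91 to 7.93. The fetal means of P12 and P15 lay below 0.722 TPM, the mean level of 3 counts in a fetal library, so that the size of their change is uncertain. P16 kept another time course from the rest: it was highest at 2 dpn in both breeds, at 477 TPM in LR and 613 TPM in LT, and stood at 65.5 to 246 TPM at 28 and 90 dpn. The other 15 P tags were higher at 90 dpn than at 2 dpn in both breeds.

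F11 was found at 9.50, 79.4 and 357 TPM as lowest, median and highest fetal value, with 4510 counts in the fetal libraries, and at 0 in all 6 young libraries. Against 3 counts in each young library, a mean of 0.901 TPM, it was at least 151-fold higher in the fetus. F12, F13, F15 and F16 were also at 0 in every young library and were at least 89.4-fold, 49.2-fold, 32.4-fold and 25.3-fold higher in the fetus by the same floor. F14 had 7710 fetal counts and 2 young counts, both in LT at 28 dpn, a ratio of 2403 with an exact 95% interval of 665 to 19849 from counting error only. The 2 counts lie below the 3 counts taken as detectable. Within the fetal period all 6 were lower at 91 dpc than at 49 dpc in both breeds: F11 stood at 85.1 TPM in LR and 357 TPM in LT at 49 dpc and at 9.50 and 22.0 TPM at 91 dpc. F14 stood at 596 and 97.8 TPM at 49 dpc and at 60.8 and 10.9 TPM at 91 dpc. Among the 5977 tags called lower, 160 had no count in the 6 young libraries, while among the 6269 called higher 1 had no count in the 8 fetal libraries. The filter on low counts treated these cases unequally, since a tag had to reach its cutoff in 6 libraries. A tag absent before birth had to do so in all 6 young libraries, and a tag absent after birth in any 6 of the 8 fetal libraries. The numbers therefore do not measure how often tags appeared or vanished at birth.

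Tags of high GC content were more frequent among the tags that rose. The 17 bases had a mean GC content of 45.7% (SD 16.3) in the tags called higher, 42.4% (SD 15.6) in those called lower and 43.2% (SD 15.9) in all tested tags, and 17.7%, 12.1% and 13.2% of them had at least 60% GC. AATAAA or ATTAAA was found in 2.66% of the tags called higher, 2.68% of those called lower and 2.72% of all tested tags. A further CATG was found in 3.64%, 3.30% and 3.40%. These shares are descriptions and were not tested.

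Some of the tags that rose and some of those that fell were near copies of each other that differed only in bases that leave the encoded residues unchanged. Such pairs were searched after the values had been seen. Among the 11747 called tags without a 10 times more abundant neighbour, a pair was kept when all complete codons of both tags encoded the same 6 or 7 residues in 1 forward frame without a stop, when at least 2 bases differed and when both tags had a mean of at least 100 TPM in their higher period. This left 13 pairs, and in 10 of them one tag was called higher and the other lower. Without the limit on TPM there were 179 pairs, of which 71 had opposite directions and the larger part the same direction, although the 5881 rising and 5866 falling tags searched were close to equal in number. Among all pairs of the 810 searched tags of at least 100 TPM, 41.5% had opposite directions. Of the 10 pairs, 8 are described here, and since they were kept for opposite calls in these libraries, the rise of the share from the fetal to the young libraries follows from the choice. The tag that rose is given first and the tag that fell second, and capitals mark the bases that differ.
pair 1, higher: catgaagatcaagatCatCgc
pair 1, lower: catgaagatcaagatTatTgc
pair 2, higher: catgaaGtgCgacatCgatat
pair 2, lower: catgaaAtgTgacatTgatat
pair 3, higher: catgcaGaaggaGatcacCgc
pair 3, lower: catgcaAaaggaAatcacTgc
pair 4, higher: catgaGacTacCtacaacagc
pair 4, lower: catgaAacGacTtacaacagc
pair 5, higher: catgtacccGggCatCgctga
pair 5, lower: catgtacccAggTatTgctga
pair 6, higher: catgagagGagagtGaaggaa
pair 6, lower: catgagagAagagtAaaggaa
pair 7, higher: catgaagaAggaaagatTctg
pair 7, lower: catgaagaGggaaagatCctg
pair 8, higher: catgaagagggCaagatcctC
pair 8, lower: catgaagagggAaagatcctG

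Pair 1 held P2 and F4, pair 2 held P4 and F1, and P3 and P7 were the rising tags of pairs 3 and 4. Pairs 7 and 8 shared their lower tag. In pair 2 the mean level of the rising tag went from 1258 to 12388 TPM while that of the falling tag went from 7690 to 444 TPM. In pair 7 the rising tag went from 4.86 to 231 TPM and the falling tag from 542 to 19.6 TPM. The pairs differed in how much of the rising tag the fetus already held: it made up a median of 51.9% of the TPM of pair 3 over the fetal libraries (21.9% to 71.6%), 35.3% of pair 1 (20.7% to 54.7%), 13.4% of pair 2 (3.75% to 33.4%) and 0.216% of pair 7 (0 to 4.05%). After birth its median share was between 96.3% and 99.8% in all 8 pairs.

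The exchange within the pairs followed the stages in both breeds. Since tags were not matched to transcripts, several pairs may count the same transcripts. The 8 pairs are therefore not separate cases, and the counts and medians over them are descriptions. Over the 8 pairs the median share of the rising tag was 10.3% in LR and 10.2% in LT at 49 dpc and 22.9% and 34.4% at 91 dpc. At 2 dpn it was 91.5% in LR and 92.1% in LT, with 78.7% and 63.8% as the lowest pair, and at 28 dpn no pair was below 98.1% in either breed. The share was higher at 91 than at 49 dpc in 7 of the 8 pairs in each breed, with pair 8 as the exception in both, and higher at 2 dpn than at 91 dpc in all 8 pairs in both. At 35 dpc, outside the comparison, the median shares were 8.16% and 10.1%. In LT at 120 and 180 dpn they were 99.9% and 97.9%. The 3 pairs that changed in the same direction included F6, which fell together with a tag that went from a fetal mean of 224 TPM to 3.40 TPM.

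**Figure D5:**
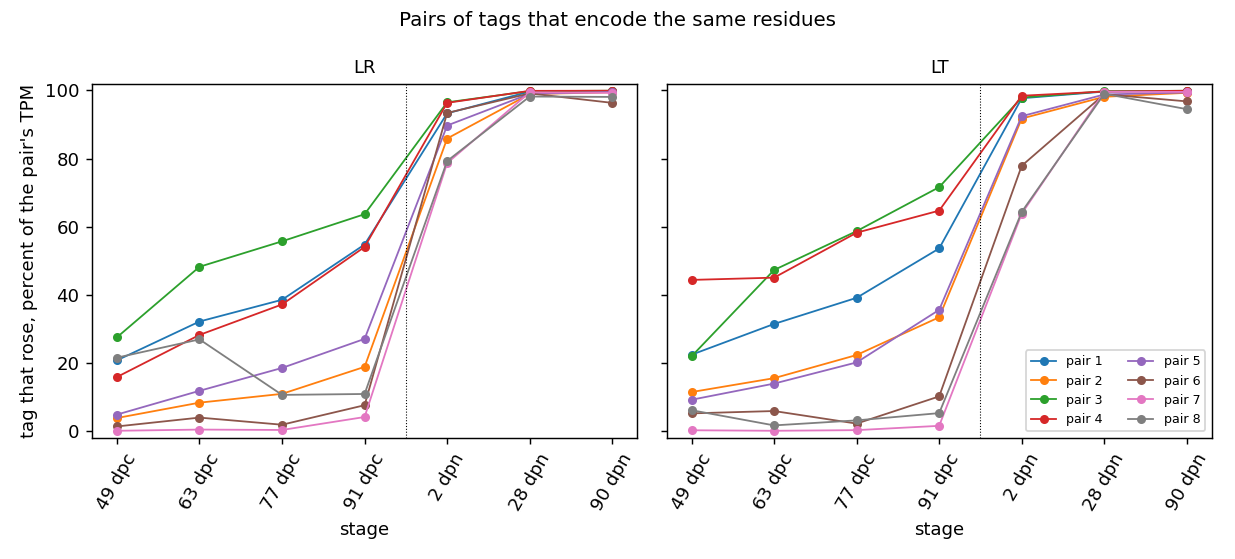
Share of the rising tag in the summed TPM of each pair of tags that encode the same residues (percent), by stage, LR left and LT right, each line 1 of the 8 pairs. The dotted line marks birth, and in all 8 pairs every young library lies above every fetal library, as the choice of the pairs favours.

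Overlapping tags were compared with each other. When a tag held a further CATG, the tag that began at that site could be recognised by an overlap of at least 12 bases. The search was added after the values had been seen and found 333 pairs of tested tags that overlapped in this way. The log2 fold changes of 287 of them had the same sign, with a median absolute difference of 0.38, and of the 84 pairs with both tags called 83 changed in the same direction. The tags of such a pair came from the same libraries and may count the same transcripts.

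The breeds were also compared apart, with separate libraries. In LR 14381 of 38757 tested tags were called (37.1%), 6843 higher (17.7%) and 7538 lower (19.4%) after birth. In LT 11584 of 56280 were called (20.6%), 5147 higher (9.15%) and 6437 lower (11.4%). The number for LT depended on single libraries: it was 3994 without LT at 77 dpc, 4886 without LT at 28 dpn, 5242 without LT at 49 dpc, 7081 and 7193 without LT at 63 and at 91 dpc, and 18569 without LT at 90 dpn. Of the 33467 tags tested in both breeds, 12269 were called in LR and 6814 in LT. The tags called in both in the same direction numbered 3499, which were 28.5% of the LR and 51.4% of the LT calls, 2295 higher and 1204 lower after birth, and 125 were called in opposite directions. Over all 33467 tags the log2 fold changes had the same sign in both breeds for 61.6%. All 16 P tags were called in both breeds. Of the 14 F tags 13 were called in LR, all but F8, and 11 in LT, all but F6, F7 and F9. The P and F tags had been chosen for their calls in these same libraries of both breeds. Their calls within the breeds are therefore descriptions and no separate test of them.

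F8 had the smallest adjusted p for a difference between the breeds among the 30 P and F tags. Its fetal values were 493 to 1068 TPM in LR and 2073 to 3181 TPM in LT, and its young values 16.7 to 369 TPM in LR and 10.3 to 107 TPM in LT. The log2 fold change was -2.01 in LR and -5.23 in LT, and the interaction of breed and period was -3.12 with an edgeR adjusted p of 0.112. P2 was the P tag nearest to a difference, with 1625 to 6343 TPM in the LR and 297 to 1677 TPM in the LT fetal libraries, and an interaction of 2.06 (edgeR adjusted p = 0.245). None of the 30 P and F tags was called for the interaction in edgeR's test, in which 3544 of 66453 tags were called (5.33%) and 17752 had an unadjusted p below 0.05. This number rested on single libraries, since it was 0 without LR at 2 dpn, 3 without LT at 28 dpn and 11939 without LT at 90 dpn. It was 345 to 1720 without any one of 10 others and moved by less than 1.5 times only without LT at 2 dpn.

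The tags with the largest interaction terms were rare. The 3 largest terms in each direction belonged to 6 tags, X1 to X6, and none of the 6 was above 8.61 TPM in any of the 14 libraries. X2 stood at 2.12 to 3.58 TPM in the LR fetal and 0 in the LR young libraries, and at 0 in the LT fetal and 0.975 to 2.28 TPM in the LT young libraries. X5 stood at 0 in the LR fetal and up to 1.28 TPM in the LR young libraries, and at 3.01 to 5.31 TPM in the LT fetal and 0 in the LT young libraries. These levels were a few counts per library, and neither tag was frequent enough to be tested within LR. Their edgeR adjusted p for the interaction was 0.0183 and 0.0223, and both calls were lost without LR at 2 dpn and without LT at 28 dpn. With 1 library left out, X2 lost its call in 2 of 13 fits that tested it and X5 in 2 of 14. The others were less steady: X1 lost it in 9 of 13, X3 in 7 of 12, X4 in 10 of 12 and X6 in 3 of 11.
X2: CATGgaatctgagtcgcatct
X5: CATGttctgaaagtgacaatg

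The 5 most abundant tags over the 14 libraries were P1 to P4 and T1. T1 had the sequence CATGagcaaaaattcactttg, with the CATG site in capitals, and was the only one of the 5 whose levels overlapped between the periods. It had 3320.0, 4869 and 8846 TPM as lowest, median and highest fetal value and 2599.8, 10766 and 24807 TPM after birth. Its levels were high at 2 and 28 dpn, at 9714 to 24807 TPM, and within or below the fetal range at 90 dpn, at 2599.8 TPM in LR and 5398 TPM in LT. T1 was called with a log2 fold change of 1.88 (SE 0.48, edgeR adjusted p = 0.00735), and it was not called with scaling by total clean tags, at an adjusted p of 0.0544, or by limma, at 0.140. Within the breeds it was called in LR (edgeR adjusted p = 0.0280) and not in LT (0.114).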

How the data were processed

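DGE tag libraries of pig longissimus muscle were analysed, and the 14 of 49 to 91 dpc and of 2 to 90 dpn, from LR and LT, were compared. The authors pooled RNA of 3 animals per breed and stage, and removed adaptor tags, low-quality tags and tags seen once, which lowers the number of distinct tags. The deposited files give, per library, the raw count of each clean tag and, rounded by the authors to 2 decimals, its TPM. Bowtie 0.12.3 is named in the submitters' processing notes, and the files hold tags before mapping. TPM was recomputed here as count over library sum times 1000000, with 0 for an absent tag.

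Counts were tested with edgeR 4.0.16 (R 4.3.3; quasi-likelihood test, TMM scaling, filterByExpr, Benjamini-Hochberg adjustment, adjusted p below 0.05), with breed as a block, then within each breed, and for the interaction of breed and period. The precision of single values is limited by 2157111 to 5322022 total clean tags per library. Library measures were taken in 2000000 tags drawn from each library and compared with 2-sided exact permutation tests over the 1225 assignments within breeds. Alternatives used DESeq2 1.42.0, limma 3.58.1 (log2(TPM + 1)), other scalings, filters and left-out libraries. Python 3.11.15, numpy 2.4.6, scipy 1.17.1 and pandas 2.3.3 were used.

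Tags named were called, did not overlap between periods and had no tag 1 base away with 10 times their counts. Per direction these were the 10 most abundant in the higher period and the 6 with the largest absolute log2 fold change at a mean of at least 20 TPM, with 3 interaction tags per direction and the 5 most abundant tags overall. The comparison and its rules were chosen with earlier results of these data known. Of the tags that met these rules 2, and of the pairs described in the text 2, are not reported here. Gene lists were not used, because tags were not matched to transcripts.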

Additional observations from a re-analysis of the deposited data

Results flagged for a closer look

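Single libraries stood apart from the others of their period in 13 of the 90 groups of values tested with Dixon's test. Its chance rate of about 1 of 20 groups assumes normally distributed values, which TPM over ordered stages of both breeds need not be. Groups with 0 throughout, such as those of F11 to F13, F15 and F16 after birth, cannot be marked and are among the 90. The number is therefore not set against chance. In 3 of the 13, F14, X1 and X4, all other values were 0, where the test marks any value above 0. Of the 13, 3 were high values of LT at 91 dpc in tags that rose after birth. P11 was at 12.6 TPM there, with 3.09 TPM as the next highest fetal value, P14 at 30.8 TPM, with 9.97 TPM next, and P16 at 11.6 TPM, with 4.21 TPM next. LR at 90 dpn was high among the young libraries for P4, at 22162 TPM with 12970.0 TPM next, and for P12, at 194 TPM with 52.3 TPM next.

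LR at 2 dpn was high among the young libraries for tags that fell after birth. F4 was at 664 TPM there, with 267 TPM as the next value and F8 at 369 TPM, with 107 TPM next. X4 was at 2.89 TPM in LR at 2 dpn and at 0 in the other young libraries. LT at 28 dpn was high for F9, at 357 TPM with 265 TPM next, for F14, at 0.390 TPM with 0 in the others, and for X3, at 4.10 TPM with 1.13 TPM next. In the fetal libraries F16 was at 83.9 TPM in LT at 49 dpc, with 28.2 TPM next, and X1 at 3.58 TPM in LR at 49 dpc and at 0 in the others.

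The change from fetal to young muscle differed between the breeds for 3544 tags by edgeR's interaction test, 2093 with the more positive change in LT and 1451 with it in LR. Of the 3544 tags, 2811 had been tested in the comparison of the periods and 504 had been called in it. This was a smaller share than over all tags tested there, of which 12246 of 41655 were called (29.4%). The median level of the 3544 tags was 6.65 TPM over the 14 libraries, against 3.21 TPM for all tags tested for the interaction. The number of 3544 rested on single libraries, and with each library left out in turn it ran from 0 to 11939.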

How the results depend on the processing

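The 30 P and F tags, with 749 values in all, kept their direction and their call in every alternative that gave an adjusted p. They had been chosen for their calls and lack of overlap in these same libraries, which favours this outcome, so that it is a description. No paired analysis was possible because the labels carry no replicate numbers that the groups share, and breed was the block; without it 11131 tags were called.

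The split of calls depended on scaling. Scaling by total clean tags called 2989 tags higher and 12116 lower, 18436 within LT and 2015 for the interaction, and limma on log2(TPM + 1), which shares that scale, called 18838, 2953 higher and 15885 lower. Without a filter on low counts 339648 tags were tested and 31387 called, 14273 higher and 17114 lower. With a mean of at least 5 TPM 3966 were called lower, and without the libraries of 2 dpn 10084, where 54283 tags were tested. DESeq2 called 9545 tags for the interaction. With 1 library left out at a time, 9633 to 13906 tags were called, 5021 to 6810 higher and 4612 to 7096 lower, and 9732 to 16480 within LR, 3994 to 18569 within LT and 0 to 11939 for the interaction. The lowest and highest interaction numbers came without LR at 2 dpn and without LT at 90 dpn. The cause was not tested.

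With labels permuted over all 14 libraries the differences of -43294 distinct tags, -0.560 percentage points of tags with a further CATG and 1.72 percentage points of GC lost their calls, at adjusted p of 0.0608, 0.0575 and 0.0513. With 1 library left out the differences were -56134 to -33057 distinct tags, 7.35 to 9.64 points for the 10 and 14.8 to 18.8 points for the 100 most abundant tags, and -2398 to -2034 tags making up 50%. They were -0.644 to -0.459 points for a further CATG, 1.37 to 2.15 points for GC, 0.811 to 1.55 points for AATAAA or ATTAAA and -0.0829 to 0.0967 points for tags ending in 6 A, a difference that changed sign in 7 of 14 cases. Tags with AATAAA or ATTAAA were called without LR at 2 dpn (adjusted p = 0.0122) and without both libraries of 2 dpn (1.82 points, adjusted p = 0.0284). Changes of tags below about 1 TPM, a few counts, were not detectable at this depth.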
